A study of Rattus norvegicus with 7 samples.

Results

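Complement components and regulators were followed in the meibomian gland of the rat eyelid, with and without ultraviolet B (UVB) light. The members were chosen by name, as 9 symbols looked up in the first column of the deposited tables, and 7 of the 9 were found among 17246 genes: C3, C1r, C1s, C2, Cfd, Serping1 and C3ar1. The other 2, Cfb and C5ar1, were not analysed here. Both groups were wild-type female Sprague-Dawley rats aged 3 months, with 4 control libraries and 3 UVB libraries. The UVB rats had the upper lids shaved and were given 300 mJ/cm2 in a 5 min session on each of 5 days, and the controls are listed as untreated. Whether the controls were shaved, and how long after the last session the glands were taken, is not given in the sources used here. The labels do not say that each library came from a separate rat, so p-values measure the spread between these libraries, which may be partly technical.

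Complement is a cascade of plasma and tissue proteins that tags surfaces for removal and draws in leukocytes. In the classical pathway the recognition protein C1q carries the proteases C1r and C1s, and active C1s cuts C4 and C2 to build an enzyme that cleaves C3. In the lectin pathway mannose-binding lectins, collectins and ficolins carry the MASP proteases and reach the same step. Factor B and factor D, the products of Cfb and Cfd, form the alternative loop that amplifies C3 cleavage. Serping1 encodes C1 inhibitor, a serpin that binds and inactivates C1r, C1s and some proteases of the MASP family. C3ar1 encodes the receptor for the C3a fragment on myeloid cells. Most plasma complement is made by the liver, and fibroblasts, epithelia, macrophages and fat cells make components locally.

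The table of RefSeq promoter windows used here, on rat assembly GRCr8, was matched by 4 of the 9 genes. The 250 bases before each annotated start are shown because C1r rose after UVB, C3 and Cfd passed no test, and C3ar1 lay between. Capitals mark matches, on either strand, to letters bound by C/EBP (TTNCNNAA), AP-1 (TGANTCA) or NF-kB (GGGNNTTTCC), factor families known from inflamed tissue. The windows lie at chr4:159098763-159099012, plus strand (C1r), chr9:2201340-2201589, minus strand (C3), chr7:10465497-10465746, minus strand (Cfd) and chr4:157756531-157756780, minus strand (C3ar1), in GRCr8.
C1r: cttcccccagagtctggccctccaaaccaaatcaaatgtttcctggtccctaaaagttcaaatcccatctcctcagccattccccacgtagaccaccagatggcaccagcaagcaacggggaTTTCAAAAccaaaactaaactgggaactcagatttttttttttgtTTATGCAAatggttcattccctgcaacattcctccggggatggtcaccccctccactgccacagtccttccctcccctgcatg
C3: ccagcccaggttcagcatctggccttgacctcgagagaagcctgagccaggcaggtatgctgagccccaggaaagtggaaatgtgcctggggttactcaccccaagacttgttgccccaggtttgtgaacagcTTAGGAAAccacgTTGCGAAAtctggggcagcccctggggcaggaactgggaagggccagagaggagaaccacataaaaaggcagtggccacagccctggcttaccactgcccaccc
Cfd: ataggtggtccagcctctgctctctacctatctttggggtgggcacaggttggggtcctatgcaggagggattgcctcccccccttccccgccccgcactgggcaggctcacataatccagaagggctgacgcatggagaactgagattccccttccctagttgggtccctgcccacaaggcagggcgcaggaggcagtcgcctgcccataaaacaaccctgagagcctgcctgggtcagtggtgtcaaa
C3ar1: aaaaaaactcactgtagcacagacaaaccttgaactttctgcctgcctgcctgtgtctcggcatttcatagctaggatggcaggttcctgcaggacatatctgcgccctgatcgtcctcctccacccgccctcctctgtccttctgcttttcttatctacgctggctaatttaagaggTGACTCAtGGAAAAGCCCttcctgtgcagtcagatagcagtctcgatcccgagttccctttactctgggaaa

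The C1r window held 2 separate C/EBP matches, starting 128 and 83 bases before the start. The C3 window also held 2, starting 117 and 104 bases before the start, the nearer of them read on both strands. In C3ar1 an AP-1 match, the same on both strands, started 72 bases before the start and an NF-kB match started at 64, without overlap. Cfd had no match to any of them. No window of the 4 matched the STAT letters TTCNNNGAA or the interferon response letters GAAANNGAAA. Of 33469 windows of this length, 37.2% held the C/EBP letters, 6.34% the AP-1 letters, 1.3% the NF-kB letters, 7.67% the STAT letters and 3.41% the interferon response letters. A match describes letters only, and the C/EBP letters stood in the promoter of a gene that rose and in that of a gene that was not called.

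Library totals ran from 20680237 to 28784941 counts, and the gland genes Scd and Awat2 were abundant in every library. Differences were tested with edgeR's quasi-likelihood method on 13709 genes, and a gene was called where the Benjamini-Hochberg adjusted p over all of them was under 0.05. Of all genes tested, 13.0% were called, 6.3% higher and 6.74% lower, and the median log2 fold change was -0.0058. Levels are given as CPM, counts divided by a TMM-adjusted library size, and as the authors' TPM, which also corrects for length, where genes are compared with each other. Column names carry no replicate number, so the letters a to d name the controls and a to c the UVB libraries, in column order.

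Where 6.3% of all genes tested were called higher, 4 of the 7 genes rose after UVB and 0 fell. These were the C1 proteases C1r (1.65-fold) and C1s (1.62-fold), C2 (1.98-fold) and the C1 inhibitor gene Serping1 (2.44-fold). The central component C3, the factor D gene Cfd and the receptor gene C3ar1 were not called. The median log2 fold change of the 7 was 0.72, and 6 of 7 values were above 0. The 3 UVB libraries lay above all controls for 4 of the 7, where 12.8% of all genes tested did so. The members and the lists below were chosen with earlier results of these data known. Their counts, set beside those of all genes, are therefore a description only. In bulk tissue, more cells of a type and more RNA per cell cannot be told apart.

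C1r, which encodes the protease that activates C1s, measured 54.7, 65.8, 70.5 and 58.9 CPM in the controls, a to d, and 119.5, 86.7 and 103 CPM in the UVB libraries, a to c. Every UVB library was above every control, and UVB a was the highest. The means were 62.5 ± 7.04 CPM (SD, n = 4) and 103 ± 16.4 CPM (SD, n = 3), 0.72 apart on the log2 scale (SE 0.12, adjusted p = 0.00797 by edgeR). C1r kept its call in all 17 alternative fits, at adjusted p-values from 1.68e-06 to 0.0275.

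C1s, the protease that cuts C4 and C2, measured 66.7, 90.7, 71.6 and 68.7 CPM in the controls and 146, 103 and 111 CPM after UVB. The groups did not overlap, but control b stood close to UVB b. The means were 74.4 ± 11.1 CPM (SD, n = 4) and 120.3 ± 23.0 CPM (SD, n = 3), 0.69 apart on the log2 scale (SE 0.14, adjusted p = 0.0195 by edgeR). Its adjusted p rose past the threshold when control c (0.67, 0.0561) or control d (0.66, 0.0542) was left out, 2 of 17 alternatives, which ran from 7.09e-05 to 0.0561. In 3 libraries the count of C1s was not whole, so some of its reads were shared with another gene, in a share that was not measured.

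C2 encodes the serine protease that C1s and the MASPs cut to form the C3-cleaving enzyme. It measured 30.1, 50.1, 41.5 and 28.2 CPM without UVB and 100, 69.2 and 53.5 CPM with it. The lowest UVB library, UVB c, was just above the highest control, control b. The means were 37.5 ± 10.2 CPM (SD, n = 4) and 74.3 ± 23.6 CPM (SD, n = 3), 0.98 apart on the log2 scale (SE 0.26, adjusted p = 0.0497 by edgeR). This call sat at the threshold and was lost in 11 of 17 alternatives, with adjusted p-values up to 0.115 and log2 fold changes from 0.71, without UVB a, to 1.17, without UVB c. In GRCr8 C2 overlaps Zbtb12, Masp1 overlaps Rtp4, and C1r and Cfi each overlap another locus as well. The counts of C2, Masp1, C1r and Cfi were whole in every library. The handling of strand is not given in the sources used here. Whether some reads were counted for the wrong gene of such a pair cannot be told.

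Serping1 had the largest change of the 7. It measured 40.7, 59.1, 47.9 and 47.1 CPM in the controls and 142, 99.9 and 115 CPM after UVB. The lowest UVB library was far above control b, the highest control. The means were 48.7 ± 7.64 CPM (SD, n = 4) and 119.1 ± 21.6 CPM (SD, n = 3), 1.29 apart on the log2 scale (SE 0.15, adjusted p = 0.00312 by edgeR), or 2.44-fold with an unadjusted 95% interval of 1.94 to 3.08. Its call held in all 17 alternatives, at adjusted p-values from 3.47e-15 to 0.014 and log2 fold changes from 1.14 to 1.41.

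C3, whose cleavage is the point where the pathways meet, was scarce in these glands. It measured 2.15, 4.71, 4.11 and 2.86 CPM without UVB and 4.22, 4.26 and 3.31 CPM with it, from 46 to 119 counts a library. All 3 UVB values fell inside the range of the controls. The fitted log2 change was 0.18 (SE 0.26, adjusted p = 0.695 by edgeR), with an unadjusted 95% interval of 0.752- to 1.71-fold. The value ran from 0.015 without control a to 0.36 without control b, and no alternative called it.

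Cfd encodes factor D, the protease that activates factor B, and is known as a product of fat cells. It measured 33.9, 29.1, 44.7 and 27.0 CPM in the controls and 28.5, 38.3 and 32.7 CPM after UVB, so the groups overlapped fully. The fitted log2 change was -0.024 (SE 0.18, adjusted p = 0.946 by edgeR), with an unadjusted 95% interval of 0.742- to 1.30-fold, and its sign changed with the setting. Fat cell markers differed between the same libraries: Adipoq, which encodes adiponectin, measured 12.6 CPM in control c, where Cfd was highest, and 7.19, 3.55 and 2.56 CPM in control a, b and d. After UVB Adipoq measured 1.52, 2.63 and 3.04 CPM (log2 fold change -1.43, adjusted p = 0.140, called by DESeq2 at 0.0204). There Adipoq stood in the order c, b, a and Cfd in the order b, c, a. Of 5 fat cell markers tested 0 rose and 1, the lipid droplet gene Plin4, fell (log2 fold change -0.44, edgeR adjusted p = 0.0133). Of all genes tested, 6.74% were called lower. Plin4 measured 115.9, 93.0, 115.1 and 119.9 CPM in controls a to d, without the peak of Adipoq in control c. Plin1 (log2 fold change -1.655, edgeR adjusted p = 0.113) and Pck1 (-2.11, adjusted p = 0.191) pointed down without a call. Retn, which encodes resistin, pointed the other way through UVB c at 3.51 CPM, against 0.299 to 0.724 CPM in the controls (log2 fold change 1.60, adjusted p = 0.161). The part of these markers in the level of Cfd was not tested.

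C3ar1 was the least abundant, with 20 to 85 counts a library. It measured 0.934, 1.91, 1.03 and 1.20 CPM in the controls and 2.65, 1.35 and 3.27 CPM after UVB. UVB a and UVB c were above every control and UVB b was below control b. The fitted log2 change of 0.94 (SE 0.35, adjusted p = 0.111 by edgeR) was not called, with an unadjusted 95% interval of 1.11- to 3.31-fold. Without UVB b it was 1.24 and passed (adjusted p = 0.0479), the lowest over 14 alternatives that reached 0.318, and it was 0.65 without UVB c.

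**Figure D1:**
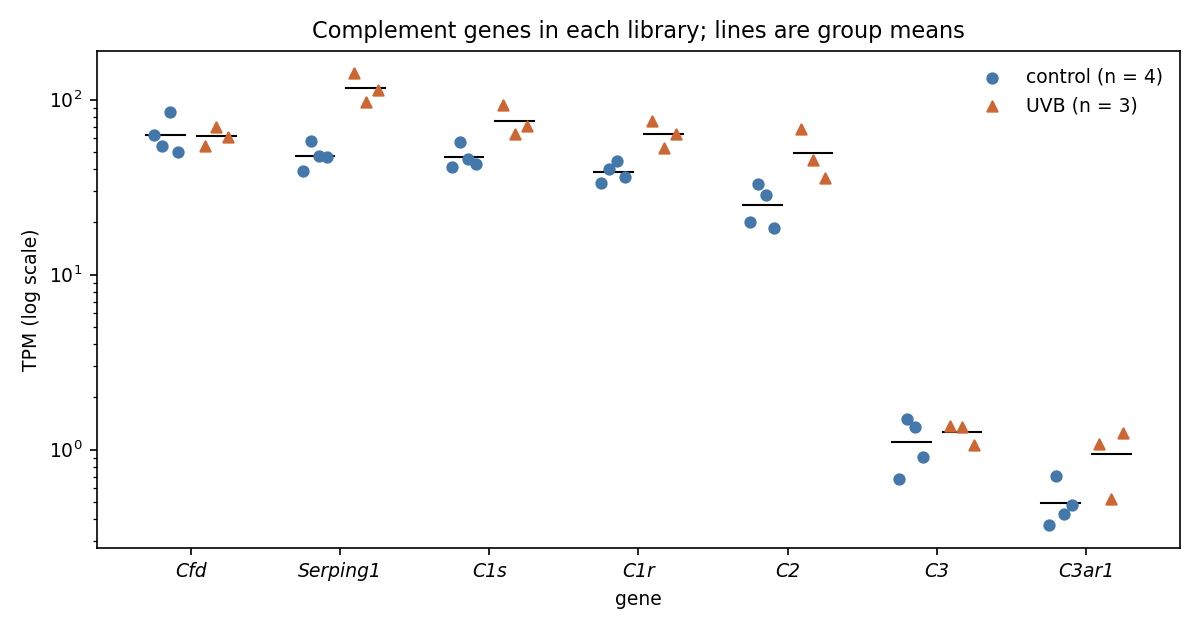
TPM of the 7 complement genes in each library, on a log scale, with control libraries as circles, UVB libraries as triangles and lines at group means. Serping1 moved from 47.9 to 117 TPM, C3 and C3ar1 lay near 1 TPM, and Cfd overlapped between the groups.

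Per length, the controls ranked Cfd first at 62.9 ± 15.6 TPM (SD, n = 4), then Serping1 at 47.9 ± 7.72, C1s at 46.7 ± 7.23, C1r at 38.4 ± 4.89 and C2 at 25.0 ± 6.99 TPM. Neighbours overlapped from Cfd down to C1r, and C2 lay below all C1r values. C3 at 1.10 ± 0.375 TPM and C3ar1 at 0.497 ± 0.149 TPM were far lower and overlapped each other. Compared within each library, C1s was above C1r in 4 of 4 controls and 3 of 3 UVB libraries. C3 was above C3ar1 in 4 of 4 controls and 2 of 3 UVB libraries. In the controls 83.8% of tested genes had a lower mean TPM than Cfd, and 9.79% a lower one than C3. After UVB Serping1 ranked first at 117 ± 22.6 TPM (SD, n = 3), above all values of C1s (75.8 ± 15.4). C1r (63.7 ± 11.2), Cfd (61.9 ± 7.94) and C2 (49.5 ± 16.4 TPM) overlapped in turn, and C3 (1.26 ± 0.173) and C3ar1 (0.95 ± 0.382) stayed at the bottom.

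Ratios of the inhibitor transcript to those of C1r, C1s, Masp1 and C2 were compared within each library, on TPM. C1s to C1r and C2 to C1s were compared too. These ratios were chosen after the values were seen. Serping1 to C1s was 0.952, 1.01, 1.03 and 1.10 in the 4 controls and 1.52, 1.52 and 1.60 in the 3 UVB libraries. The inhibitor transcript was close to that of C1s in every control and above it in every UVB library, a 1.51-fold higher ratio (exact two-sided permutation p = 0.0286, the smallest that 35 regroupings allow, and 0.0857 adjusted over 6 ratios). Serping1 to C1r went from 1.25 ± 0.159 (SD, n = 4) to 1.83 ± 0.0512 (SD, n = 3), 1.48-fold, with the same exact p and adjusted p. Neither ratio passed after adjustment, although all 3 UVB libraries were above all controls in both. Leaving out 1 library kept the direction, at 0.49 to 0.63 on the log2 scale, but so few libraries cannot reach 0.05.

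Serping1 to Masp1 had the largest change of the 6 ratios, from 2.87 ± 0.553 (SD, n = 4) to 4.45 ± 0.153 (SD, n = 3), 1.57-fold and without overlap, and did not pass (exact permutation p = 0.0571, adjusted 0.114). Serping1 to C2 overlapped between the groups (1.24-fold, exact p = 0.2, adjusted 0.274), as did C2 to C1s (1.22-fold, exact p = 0.229, adjusted 0.274). C1s to C1r was 1.22 ± 0.156 (SD, n = 4) without UVB and 1.19 ± 0.0678 (SD, n = 3) with it (p = 0.857 by exact permutation), on both sides of 0 in the log2 difference when 1 library was left out.

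**Figure D2:**
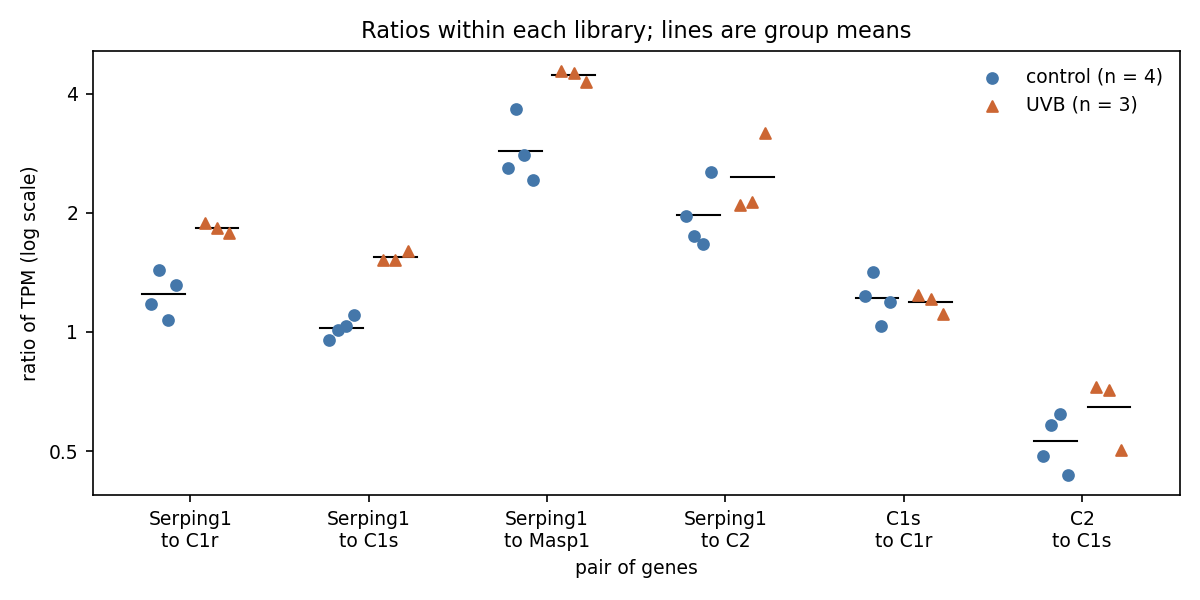
Ratio of TPM of 2 genes within each library, on a log scale, with control libraries as circles, UVB libraries as triangles and lines at group means. Serping1 to C1r and Serping1 to C1s lay at 1.83 and 1.54 on average after UVB against 1.25 and 1.03 in the controls, and C1s to C1r overlapped.

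The rest of the pathway came from a list of 42 other complement genes, of which 35 were in the tables and 26 were tested. Of the 26, 7 rose and 0 fell, where 6.3% of all genes tested were called higher. The median log2 fold change of the 26 was 0.29, and that of all genes tested was -0.0058. The 7 that rose were C1qb, C1qc, Masp1, Fcna, Cfi, Cd93 and C1qbp. DESeq2, which applies its own filter, called 11, adding C1qa and Fcnb as higher and C8g and Cpn1 as lower. Leaving out 1 library gave 5 to 7.

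Among recognition molecules, the C1q chain genes C1qb and C1qc rose and C1qa was not called. C1qb measured 8.45, 12.6, 10.2 and 7.22 CPM in the controls and 23.5, 18.2 and 29.1 CPM after UVB (2.45-fold, edgeR adjusted p = 0.00833), with no overlap. C1qc was 1.91-fold higher (adjusted p = 0.0376), a call lost in 8 of 17 alternatives, up to 0.0959. C1qa stood at 1.80-fold (adjusted p = 0.114), and UVB b at 16.9 CPM lay below control b at 20.9 CPM. DESeq2 called it (0.0161), and the other 16 alternatives did not. The ficolin gene Fcna, whose product recognises sugars, rose 2.71-fold from 1.27 ± 0.391 (SD, n = 4) to 3.46 ± 0.759 CPM (SD, n = 3, adjusted p = 0.0115). The collectin gene Colec11 was the most abundant complement transcript by TPM of those named here, from 1389 to 1761 TPM, and was not called (log2 fold change -0.21, adjusted p = 0.12), though it was lower without control a (-0.26, adjusted p = 0.0358). All 7 of its counts were fractional, which means that some reads were split with other genes.

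Masp1, which encodes a lectin pathway protease, measured 33.8, 34.3, 35.0 and 41.6 CPM in the controls and 64.9, 47.7 and 59.0 CPM after UVB (1.58-fold, edgeR adjusted p = 0.00858). This was close to the folds of C1r and C1s, and the call held in 17 of 17 alternatives. C1rl, a relative of C1r, was not called (1.38-fold, adjusted p = 0.280), nor was Masp2 (0.818-fold, adjusted p = 0.4996). The C4 genes were not analysed here.

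Terminal components, which form the membrane pore, gave no call among 3 tested, where 13.0% of all genes tested were called. C7 measured 12.0 to 28.5 CPM in controls and 15.1 to 41.0 CPM after UVB (log2 fold change 0.29, adjusted p = 0.670). C8g was lower in every UVB library, from 6.26 ± 0.494 (SD, n = 4) to 4.50 ± 0.549 CPM (SD, n = 3), without passing (log2 fold change -0.48, edgeR adjusted p = 0.0613). C5 had at most 4 counts in a library, and C8a and C9 at most 2.

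Of the soluble regulators besides Serping1, Cfi rose. It encodes factor I, which cuts C3b and C4b with a cofactor. Cfi measured 1.03, 0.793, 0.931 and 0.769 CPM in the controls and 2.51, 2.13 and 3.51 CPM after UVB (3.07-fold, edgeR adjusted p = 0.00625), with no overlap, from 17 to 91 counts a library. Clu (log2 fold change -0.13, adjusted p = 0.391), the vitronectin gene Vtn (0.024, adjusted p = 0.951) and the properdin gene Cfp (-0.11, adjusted p = 0.758), which stabilises the alternative enzyme, were not called.

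Membrane regulators, which protect host cells, gave 0 calls of 4 tested with edgeR and none lay apart between the groups. With 13.0% of all genes tested called, 0 calls among so few genes is unremarkable. Cd59, which blocks the pore, measured 364.5 ± 13.2 CPM (SD, n = 4) and 378 ± 8.74 CPM (SD, n = 3), with an unadjusted 95% interval of 0.945- to 1.14-fold. Cr1l, the rodent regulator of C3 cleavage, measured 62.6 ± 1.99 (SD, n = 4) and 63.0 ± 3.43 CPM (SD, n = 3), with an interval of 0.914- to 1.11-fold. Of 33 complement genes tested, C1qbp alone had a narrower interval on the log2 scale than these genes. Cd55 was 1.22-fold higher with overlap (adjusted p = 0.380).

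Among receptors, Cd93, of endothelial and myeloid cells, rose 1.46-fold (edgeR adjusted p = 0.0494), a call lost in 13 of 17 alternatives, up to 0.135. C1qbp, whose product binds the C1q head but resides mainly in mitochondria, rose 1.30-fold from 109.9 ± 3.36 (SD, n = 4) to 143 ± 6.73 CPM (SD, n = 3, adjusted p = 0.00594). The second C5a receptor gene C5ar2 (1.23-fold, adjusted p = 0.515) and the integrin genes of complement receptors 3 and 4, Itgam (1.29-fold, adjusted p = 0.702), Itgax (0.753-fold, adjusted p = 0.348) and Itgb2 (0.825-fold, adjusted p = 0.7295), were not called. Cr2 had at most 1 count in a library and Vsig4 at most 2.

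**Figure D3:**
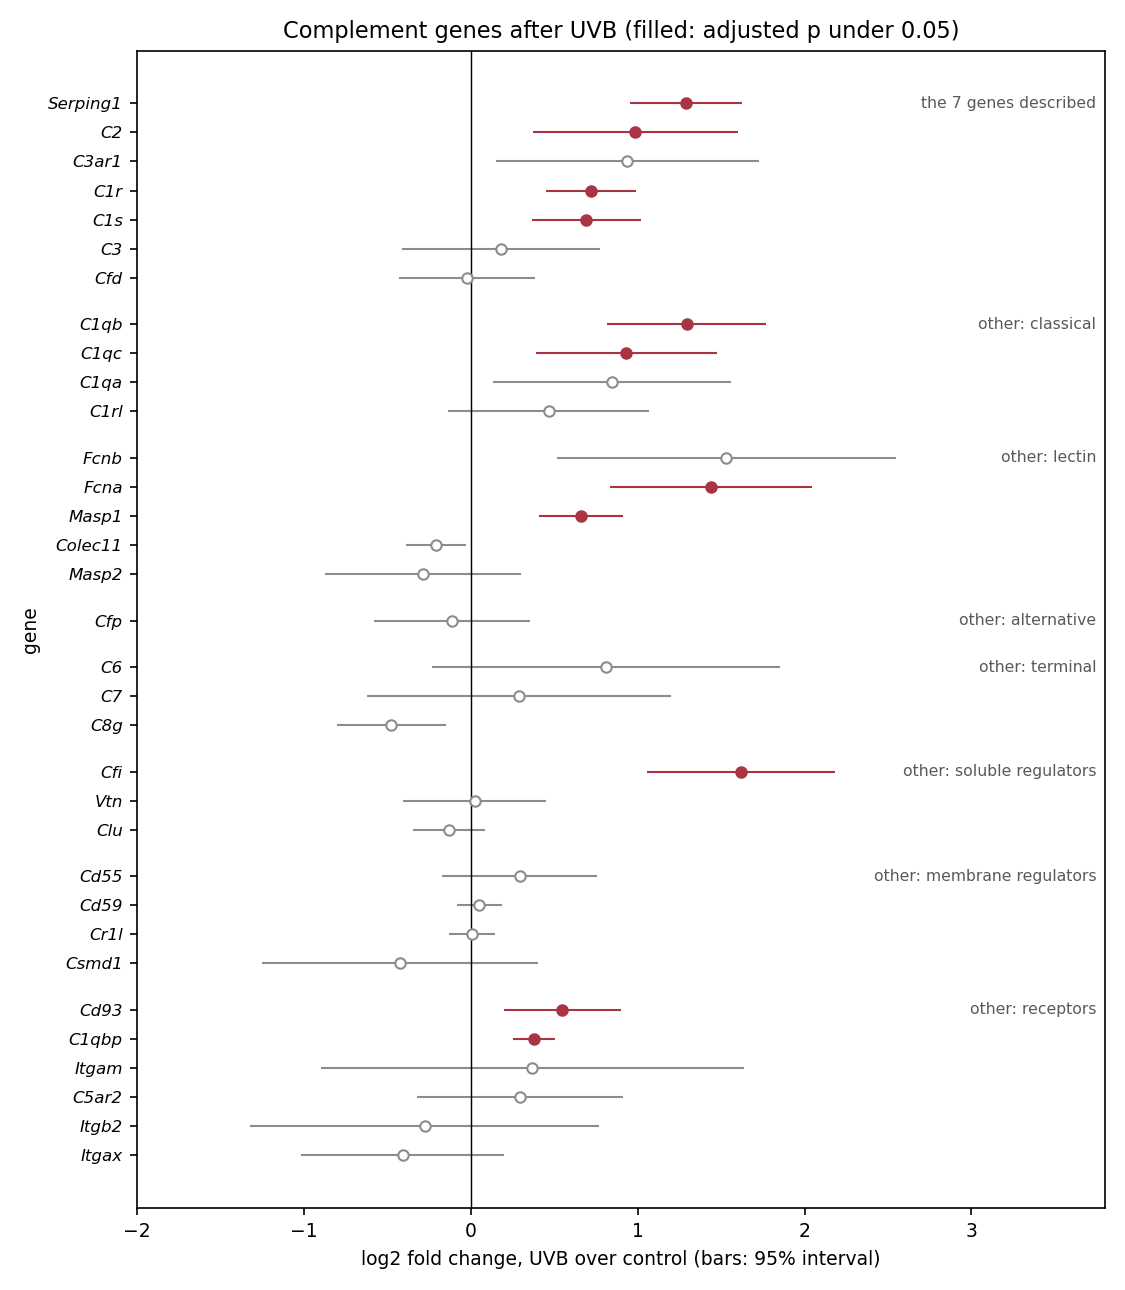
Log2 fold change of UVB over control for 33 complement genes tested, grouped by role, with unadjusted 95% intervals and filled points at adjusted p under 0.05. The 11 filled points all lie above 0, and Cd59 and Cr1l sit near 0 with narrow intervals.

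Cytokines known to induce complement genes were checked from a list of 7, of which Tnf and Ifng were not analysed here. No control held over 2 counts of Il6, which measured 3.89, 0.581 and 0.462 CPM in UVB a to c, at least 12.8-fold higher by a floor of 3 counts per library, which covers counting error only (edgeR adjusted p = 0.0247). UVB a carried most of it, and the bound was 4.08-fold without that library. The call was lost in 6 of 16 alternatives, up to an adjusted p of 0.0818, among them every fit without 1 control. Osm measured 0.0345 to 0.28 CPM in controls and 0.503 to 1.09 CPM after UVB (adjusted p = 0.0227), with 1 to 23 counts. Il1b (1.72-fold, adjusted p = 0.139) was not called, nor were Il1a and Lif. UVB a was highest for Il6, Osm and Il1b, as it was for C1r, C1s, C2 and Serping1, and the part of these cytokines was not tested.

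Markers of other cells moved in the same libraries. Of 6 fibroblast markers tested 4 rose and 0 fell, where 6.3% of all genes tested were called higher. Pdgfra measured 25.6, 32.0, 28.5 and 26.6 CPM in the controls and 61.1, 43.9 and 54.0 CPM after UVB (1.88-fold, edgeR adjusted p = 0.00348), and Lum, Dcn and Pdgfrb also rose. The UVB libraries stood in the order a, c, b for these 4 genes and for C1r, C1s, Serping1 and Masp1. The endothelial markers Vwf, Cdh5, Kdr and Tie1 stood in that order too, so it was not particular to fibroblast markers. With so few libraries, orders coincide easily, and the share of all genes in this order was not counted. For the collagen markers Col1a1 and Col3a1 the order was a, b, c, with log2 fold changes of -0.48 and 0.019. The summed level of the fibroblast list was 2453 to 3790 CPM in controls and 2515 to 4158 CPM after UVB, since the collagen genes Col1a1 and Col3a1, most of that sum, were not called. The part of the fibroblast markers in the rise of C1r, C1s and Serping1 was not tested.

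Macrophage markers split. Of 10 tested, Cd14, Mrc1, Cd163 and Ms4a7 rose and 0 fell, where 6.3% of all genes tested were called higher. Cd68 (log2 fold change -0.41, adjusted p = 0.186, and lower without control a at 0.0248), Csf1r (-0.0093, adjusted p = 0.985) and Adgre1 were not called. The list summed to 76.8 to 138.7 CPM in the controls and 110.2 to 187 CPM after UVB. Cd163 measured 35.1, 14.8 and 38.8 CPM in UVB a to c, and the order c, a, b was that of C3ar1, the 3 C1q genes, Mrc1 and Cfi. Cd68 and Itgb2, which did not rise, stood in that order too, as did the neutrophil marker Csf3r and the endothelial marker Tek. Cd14, which rose, stood in the order c, b, a. Control b, the highest control for 5 of the 7 genes, was also highest for Cd68, Mrc1 and Itgb2. It was highest for the fibroblast markers Pdgfra, Pdgfrb and Lum as well, while Cd163 and Dcn were highest in control c. The part of these markers in the values of C3ar1 and C1q was not tested.

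**Figure D4:**
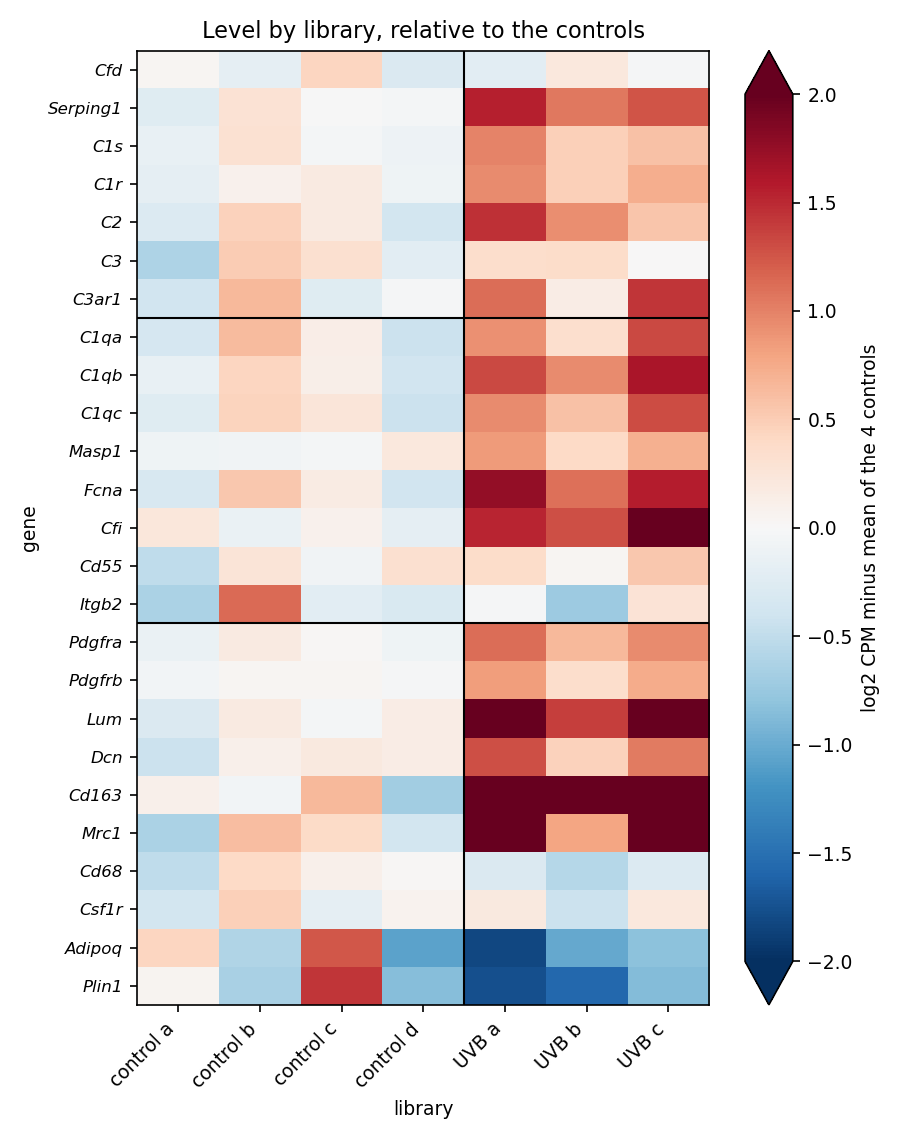
Level of complement genes and markers in each library as log2 CPM minus the mean of the 4 controls, with the 7 genes at the top, other complement genes in the middle and markers of fibroblasts, macrophages and fat cells at the bottom. Serping1, C1s, C1r, Masp1 and Pdgfra are strongest in UVB a, and C3ar1, the C1q genes and Cfi in UVB c; the colour scale ends at 2 in both directions.

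The remaining lists are read beside all genes tested, of which 6.3% were called higher and 6.74% lower. Of endothelial markers 3 of 5 rose, of mast cell markers 2 of 5 and of neutrophil markers 2 of 4. Of T cell and of keratinocyte markers 1 of 4 rose, and none in these lists fell. The T cell riser was Cd2, while Cd3e, Cd3g and Cd5 pointed down without a call (log2 fold changes -0.55, -0.27 and -0.37). The neutrophil risers were Csf3r and S100a9, the latter already at 107.4 ± 7.05 CPM (SD, n = 4) in the controls. The mast cell list summed to 37.5 to 53.7 CPM in controls and 59.9 to 63.9 CPM after UVB, and the endothelial list to 99.2 to 122 and 141 to 167 CPM. Kit, at means of 41.5 CPM in controls and 53.6 CPM after UVB, made most of the mast cell sum. It was not called (edgeR adjusted p = 0.0693). The neutrophil marker genes Mmp8 and Mpo were too scarce to be tested, and Csf3r measured 0.0934 to 0.299 CPM in the controls and 0.929 to 3.08 CPM after UVB. The single B cell marker tested and the 3 muscle markers gave 0 calls, and 1 of 6 meibocyte markers, Awat2, fell. The liver genes Alb and Ttr had at most 1 count in any library, and Serpina1 fell. The part of these cells in the complement values was not tested.

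As a description over the 7 libraries, which share the group difference, the 3 genes most like each were sought among 11318 genes by Pearson r of log2 CPM. Serping1 had Nudcd2 (r = 0.995), the fibroblast receptor gene Pdgfra (0.994) and Mad2l1 (0.991) beside it. C1r had the laminin gene Lamc1 (0.988), Grk5 (0.986) and Igfbp7 (0.984), and C1s had Dok1 (0.991), the adhesion gene Icam1 (0.989) and Eci1 (0.985). C2 had Mmachc (0.999), Dusp23 (0.984) and Hspb6 (0.981), and C3ar1 had Dis3l (0.988), Clec4a3 (0.982) and Ms4a6e (0.98). Cfd had Mcm3ap (0.995), Actr5 (0.967) and Arhgap9 (0.958), and C3 had Rgl2 (0.984), Snrnp200 (0.946) and Irx5 (0.928). With 7 libraries and so many genes searched, high values arise easily.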

How the data were processed

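RNA was sequenced from dissected meibomian glands. The authors deposited expected counts (estimated counts per gene, 12.5% of values not whole) and TPM values; FastQC, Trimmomatic, DRAGEN, Picard and build rn7 are named in the submitters' processing notes, without roles. Gene names hold unquoted commas, so each row was parsed backwards from its last field to get its 7 values; 5 rows lacked values. The members and lists were chosen with earlier results of these data known.

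Counts were rounded and fitted in edgeR 4.0.16 (R 4.3.3; TMM, filterByExpr, robust quasi-likelihood test), with limma 3.58.1 and DESeq2 1.42.0 as alternatives; the fits were tested on simulated data. Each standard error is the size of the log2 change divided by the root of edgeR's F. Intervals use the fit's degrees of freedom. Named genes were the members, every other complement gene called, 12 fixed complement genes (another item of that list is not reported here), 7 fixed cytokine and marker genes, and the 3 most alike genes per member; further genes were chosen after their values were seen. No 2 libraries of a group agreed within sampling noise (chi-square per degree of freedom at least 10.5). Floors and intervals cover counting error or library spread only. RefSeq (GRCr8) gave promoters, neighbours and names; its build differs from that of the counts, so GRCr8 coordinates are given for the promoter windows alone.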

Additional observations from a re-analysis of the deposited data

Results flagged for a closer look

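For 49 measures (gene levels, ratios and the library total) the spread of the 4 controls was examined, and in 4 of them a single control stood well away from the rest. Chance gives such a gap in about 1 in 20, or 2.45 of 49. None was a value of C3, C1r, C1s, C2, Cfd, Serping1 or C3ar1. The 3 UVB libraries were too few to be examined this way.

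Masp1 measured 41.6 CPM in control d and 33.8 to 35.0 CPM in a to c, so that the gap made up 0.848 of the range, and control d stayed below every UVB library. Itgb2, the shared chain of leukocyte integrins, measured 15.9 CPM in control b and 4.67 to 6.24 CPM in the others (gap 0.859). Clu measured 81.8 CPM in control a and 95.2 to 96.4 CPM in the others (gap 0.915), and Cfp 2.57 CPM in control b and 2.01 to 2.10 CPM in the others (gap 0.835). The causes were not tested.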

How the results depend on the processing

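No paired analysis was possible because no replicate number of the labels stands in a column name. Across 17 alternatives, C1r, Serping1, C1qb, Masp1 and Fcna kept direction and call, as did Cfi and C1qbp wherever they were fitted. Leaving out 1 library gave 2 to 4 called members (2 without control c and without control d) and 5 to 7 other complement genes, and DESeq2 called 11 of the latter. Over all genes the same fits gave 851 to 1898 calls, 421 to 927 higher and 430 to 971 lower, and log2(TPM + 1) without a filter gave 571 lower; the cause was not tested. The share of calls that were higher was 48.3%, and 58.5% without UVB b.

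Signs changed only for uncalled values. Cfd became 0.000074 under log2(TPM + 1), 0.00037 under log2(TPM + 0.1), 0.14 without control c and 0.072 without UVB a, the single-library range being -0.14 to 0.14. Cr1l became -0.0093 without control a and -0.034 without UVB a (up to 0.048 without UVB b). The log2 difference of C1s to C1r became 0.044 without control b and 0.016 without UVB c (down to -0.11 without control c). The ratios and their alternatives were chosen after seeing the data. C3ar1 and C3 rest on few counts, which limits their precision.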
